A study of Mus musculus with 2 samples.

Results

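The long intergenic noncoding RNAs (lincRNAs) described here are 108 genes that were expressed in the gastrocnemius, the large calf muscle, of the mouse. They were chosen by their own level: a gene typed as lincRNA in GENCODE M21 was taken if its deposited TPM was at least 1 in both libraries, and the imprinted RNAs H19, Meg3, Rian and Mirg were left out by name. The 108 genes are 1.84% of the 5854 lincRNA genes and stand among 55536 genes in all. Because TPM chose them, their levels are given as a description. The samples were gastrocnemius muscles of 2 male B6CASTF1/J mice, an F1 cross of a C57BL/6 parent with a CAST parent, both 36 days old, for which the labels name no treatment and no altered gene. Both animals form a single group (n = 2), numbered replicate 1 and replicate 2, with separate biosamples but the same donor entry, so part of the spread between them may be technical. Total RNA (300 ng) was made into ribosomal RNA-reduced, stranded libraries with spike-in RNAs. As the muscle was taken whole, fewer cells of a type and less RNA per cell cannot be told apart.

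LincRNAs are RNA polymerase products that lie between protein-coding genes, are often spliced, and are mostly not translated. Some build nuclear bodies, some hold proteins or microRNAs by repeated or extended binding sites, and some carry small nucleolar RNAs or microRNAs that are cut out of them. In skeletal muscle, single lincRNAs are known beside the myosin heavy chain genes and in the control of muscle differentiation, and some transcripts first listed as noncoding were later found to encode small proteins.

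The gene tables held 36952277 expected counts in replicate 1 and 38754338 in replicate 2, and 3 counts, the limit a count of 0 allows, came to 0.0812 and 0.0774 CPM, counts scaled to the library total. The 108 lincRNAs took 1.88% of the counts in replicate 1 and 1.81% in replicate 2. Of the other lincRNA genes, 35 reached 1 TPM in a single library and 4589 were listed at 0 in both. For comparison, 45.6% of 22028 protein-coding genes reached 1 TPM in both libraries. The muscle fibre markers summed to 84345 TPM in replicate 1 and 89132 in replicate 2, with 6 of 6 at 1 TPM or more, and the 3 liver markers were at 0 in both.

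The levels were steeply unequal. Summed over all 108 genes they were 9162 TPM in replicate 1 and 8853 in replicate 2, of which the 4 highest genes held 89.5% and 88.4%. The median gene had a mean of 2.75 TPM. By mean TPM, 3 genes were at 1000 or more, 3 at 100 to 1000, 13 at 10 to 100, 14 at 5 to 10, 32 at 2 to 5 and 43 at 1 to 2. Only 20 of the 108 carry a symbol that is neither a Gm number, nor a Rik clone name, nor a genomic clone name. The genes were spread over 20 chromosomes. At the threshold, 6720427I07Rik had 1.01 TPM in replicate 1 and 1.00 in replicate 2 and was inside, while E130102H24Rik with 0.99 and 1.57 TPM and Dubr with 1.56 and 0.97 TPM were outside. The next genes inside were Gm14005, A330094K24Rik, Gm13861 and Snhg18, with lower values of 1.01 to 1.07 TPM, and the next outside were Gm8066, Gm43699 and 4632404H12Rik, with lower values of 0.98, 0.97 and 0.96 TPM.

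**Figure D1:**
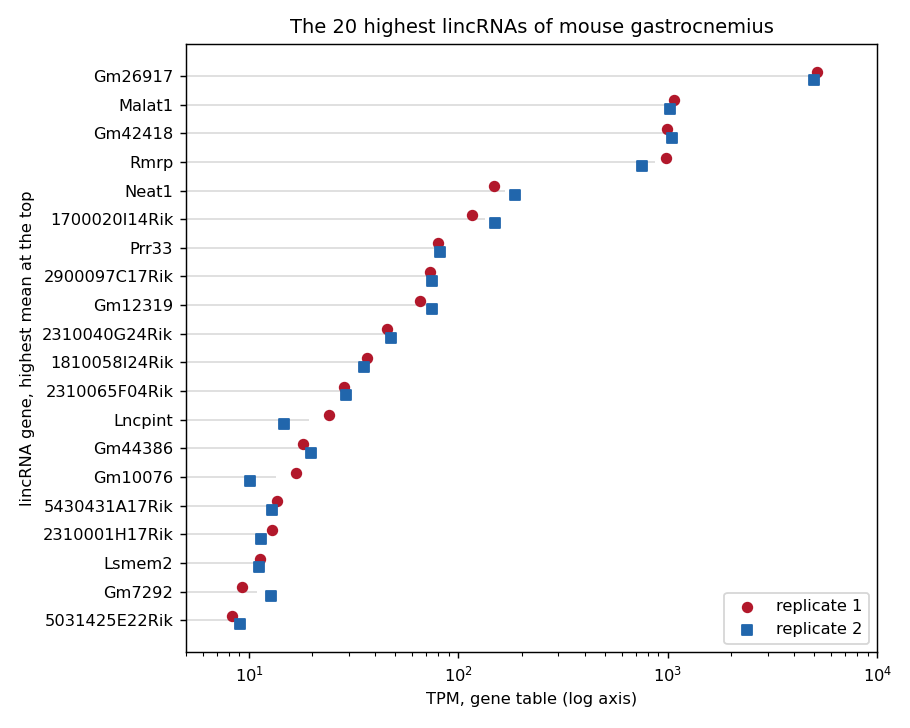
Level of the 20 highest lincRNAs in each animal, in TPM on a log axis, with replicate 1 as circles and replicate 2 as squares. Gm26917 stood at 5169 TPM in replicate 1 and 4994 in replicate 2, and the levels fell off to under 10 TPM by the last of the 20 genes.

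The highest gene and the gene ranked behind Malat1 lie side by side on chromosome 17, at a copy of ribosomal RNA. Gm26917 (mm10 chr17:39843013-39846341, plus strand) had 5169 TPM in replicate 1 and 4994 in replicate 2, a mean of 5081 ± 123 TPM (SD, n = 2), and ranked 25 among all genes. Gm42418 (chr17:39846958-39848788, plus strand), 617 bases further on, had 989 TPM in replicate 1 and 1050 in replicate 2. RefSeq gives Gm42418 as a synonym of Rn18s-rs5 (chr17:39846354-39848202), a pseudogene of the 18S ribosomal RNA. Most of Gm42418 overlaps that entry, and Gm26917 ends 12 bases before it. Both genes together held 67.2% of the lincRNAs' TPM in replicate 1 and 68.3% in replicate 2, and without them the sums were 3004 and 2809 TPM. Ribosomal RNA was reduced in these libraries, and how many of the reads given to either gene came from ribosomal RNA made elsewhere was not tested. The animals differed little in either gene, with log2 ratios of replicate 1 over replicate 2 of 0.05 for Gm26917 and -0.09 for Gm42418.

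Rmrp is the RNA of RNase MRP, an enzyme that cuts precursor ribosomal RNA in the nucleolus. Its lincRNA entry (chr4:43492783-43493063, minus strand) had 978 TPM in replicate 1 and 755 in replicate 2, from 5619 and 4355 expected counts. GENCODE holds a separate Rmrp gene of type ribozyme inside that entry, which had 1327 TPM in replicate 1 and 986 in replicate 2. The sequence of the lincRNA entry, 5′ to 3′, is printed to show how little sets the entries apart. Capitals mark the 271 bases that are identical in the ribozyme entry, and the 5 bases at each end are the only ones of the lincRNA entry alone.
Rmrp: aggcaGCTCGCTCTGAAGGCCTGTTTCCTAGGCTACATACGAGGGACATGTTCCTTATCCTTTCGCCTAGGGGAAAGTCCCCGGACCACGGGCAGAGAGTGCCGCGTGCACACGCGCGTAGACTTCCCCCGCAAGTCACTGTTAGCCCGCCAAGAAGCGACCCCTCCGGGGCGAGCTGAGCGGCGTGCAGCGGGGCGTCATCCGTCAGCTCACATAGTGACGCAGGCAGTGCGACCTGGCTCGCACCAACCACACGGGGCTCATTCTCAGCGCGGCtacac
Reads inside the capitals cannot be told apart by sequence, so the split between the entries is uncertain, and the level of the lincRNA entry on its own cannot be read as the level of the RNA. Both entries were higher in replicate 1. In the second transcript table, which was made by another quantification, both entries were listed at 0 in both animals.

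Malat1 and Neat1 are the RNAs of nuclear bodies and lie 22036 bases apart on the minus strand of chromosome 19. Malat1, a nuclear speckle RNA that is abundant in most tissues, had 1066 TPM in replicate 1 and 1027 in replicate 2 and ranked 60 among all genes. Neat1, which is the scaffold of paraspeckles, had 148 TPM in replicate 1 and 187 in replicate 2, a mean of 168 ± 27.2 TPM (SD, n = 2). The log2 ratio of replicate 1 over replicate 2 was 0.05 for Malat1 and -0.33 for Neat1, neither of which reached 2-fold.

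Paraspeckles need the long form of Neat1, while the short form shares its 5′ end. The short form, of 3004 bases, had 91.8 TPM in replicate 1 and 98.0 in replicate 2, which was 61.8% and 52.4% of the gene. The long form, of 20771 bases, had 50.7 TPM in replicate 1 and 77.1 in replicate 2, which was 34.2% and 41.2% of the gene. In the second transcript table the short form had 107 TPM in replicate 1 and 91.0 in replicate 2, and the long form had 74.9 and 105 TPM. The long form was thus the lower of the pair in both animals in the first table, and the higher of the pair in replicate 2 alone in the second. As every read in the short form except at its own ends also fits the long one, this split rests on how each quantification shared those reads. The paraspeckle proteins were all expressed: 18 of 18 listed genes reached 1 TPM in both animals, summed to 334 TPM in replicate 1 and 313 in replicate 2, and none passed the criterion for a difference between the animals that is set out further on. Among them Sfpq, which binds Neat1, had 25.2 TPM in replicate 1 and 18.9 in replicate 2.

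**Figure D2:**
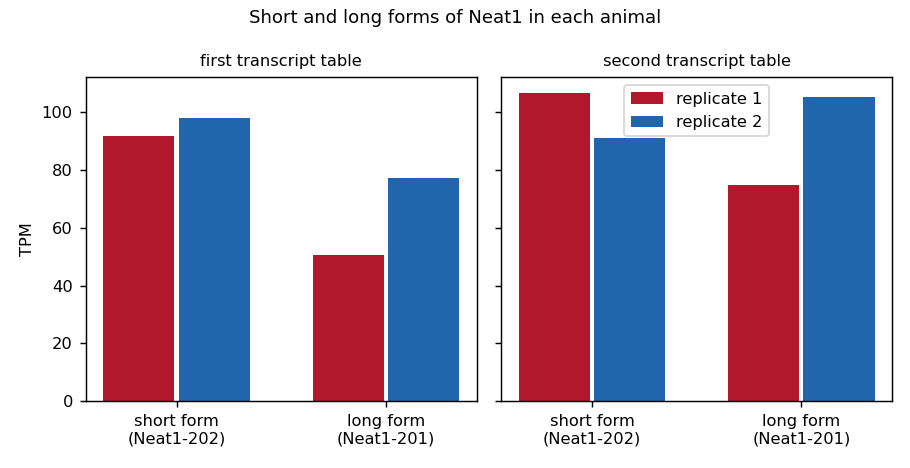
TPM of the short and the long form of Neat1 in replicate 1 (red) and replicate 2 (blue), in the first transcript table (left) and the second (right). The long form had 50.7 TPM in replicate 1 and 77.1 in replicate 2 in the first table, and 74.9 and 105 TPM in the second.

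Next came lincRNAs that bind a microRNA or a protein at known sites. 1700020I14Rik (chr2:119594297-119607502, plus strand), listed by RefSeq as Oip5os1 and known as Cyrano, carries a site of unusually long pairing to miR-7 and is known to promote the loss of that microRNA. It had 117 TPM in replicate 1 and 150 in replicate 2, a mean of 133 ± 23.4 TPM (SD, n = 2). Its long transcript of 8300 bases held 76.3% of its TPM in replicate 1 and 73.5% in replicate 2, and 81.8% over both in the second table. The site lies at bases 2935 to 2959 of that transcript. It is shown 5′ to 3′ because it is the feature the RNA is known for. Capitals in the site mark the 22 of 25 bases that a script paired with the microRNA, and capitals in the microRNA (RefSeq) mark the seed, bases 2 to 8.
1700020I14Rik: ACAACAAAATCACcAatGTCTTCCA
mmu-miR-7a-5p: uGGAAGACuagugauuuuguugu
The pairing left 2 bases of the site unpaired beside the seed match and 1 base mismatched. A match to the seed alone is common: it occurred in the leading transcript of 21 of the 108 lincRNAs and in 10.7% of 8541 lincRNA transcripts. The 8541 are all annotated lincRNA transcripts and were not matched in length to the leading ones, so these shares are not like for like.

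2900097C17Rik, listed by RefSeq as Norad (chr2:156388065-156392979, minus strand), is known for holding Pumilio proteins, which bind the motif TGTANATA in RNA. It had 72.9 TPM in replicate 1 and 74.9 in replicate 2, nearly all from a single transcript of 4915 bases. That transcript held 11 copies of the motif on its own strand, and it was the only 1 of 8541 lincRNA transcripts with 10 or more. The next among the 108 genes was Gm7292, with 9 copies in 2527 bases, at 9.21 TPM in replicate 1 and 12.7 in replicate 2. The motif occurred at least once in 18 of the 108 leading transcripts, and in 11.3% of all lincRNA transcripts, again without a match of length. The stretch from base 1513 to base 1641 is shown as an example, with its 2 motifs in capitals.
2900097C17Rik: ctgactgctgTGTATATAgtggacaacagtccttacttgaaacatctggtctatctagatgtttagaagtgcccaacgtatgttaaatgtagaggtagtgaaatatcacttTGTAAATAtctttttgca
A motif match is a description of these letters and was not tested as a site of binding.

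2310065F04Rik, known as linc-MYH, lies in the cluster of fast myosin heavy chain genes (chr11:67112461-67120080, minus strand). In mouse muscle it is known as a lincRNA of fast fibres that is controlled together with the fast myosin genes. It had 28.3 TPM in replicate 1 and 29.0 in replicate 2, a log2 ratio of replicate 1 over replicate 2 of -0.04. Its nearest protein-coding gene was Myh3, the embryonic myosin heavy chain, 10170 bases away and convergent with it, at 4.67 TPM in replicate 1 and 3.13 in replicate 2. A 2724-base transcript held 65.6% of its TPM in replicate 1 and 56.8% in replicate 2, and a 1049-base transcript held the rest. Its promoter window (RefSeq, GRCm38, chr11:67120031-67120330, minus strand) is shown 5′ to 3′ since this is the highest lincRNA of the list named for muscle, from 250 bases before the start to 50 after it. Capitals mark TATAAA and GGAATG on either strand, which made 3 matches, of which the first pair overlap. That TATAAA pair lies at the upstream end of the window, close to 250 bases before the start, and its use as a promoter element was not tested.
2310065F04Rik: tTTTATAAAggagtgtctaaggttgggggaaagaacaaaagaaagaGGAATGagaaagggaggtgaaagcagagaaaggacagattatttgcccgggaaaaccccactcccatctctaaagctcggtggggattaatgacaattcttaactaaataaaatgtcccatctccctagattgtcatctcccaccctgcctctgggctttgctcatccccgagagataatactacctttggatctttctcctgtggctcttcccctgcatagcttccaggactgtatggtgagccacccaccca
The window held no E-box (CANNTG). A promoter was in the table for 57 of the 108 genes. These windows follow RefSeq starts, which for some genes lie far from the GENCODE start, as far as 61004 bases in 8430426J06Rik and 73414 in Gm14005. An E-box occurred in 80.7% of the 57 windows and in 72.2% of 27018 promoter windows of the same length, TATAAA in 15.8% and 14.2%, and GGAATG (or CATTCC), a motif bound by TEAD factors, in 8 of the 57 windows and 14.6% of all. The median window held 10 CpG among the 57 genes and 7 among all promoters.

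Most of the other lincRNAs among the 20 highest are known only by a clone or number name. Prr33 (chr7:142491074-142506771, minus strand) had 80.1 TPM in replicate 1 and 81.5 in replicate 2. It overlaps Tnnt3, the fast skeletal troponin T, on the opposite strand, and Tnnt3 had 13550 TPM in replicate 1 and 13341 in replicate 2. The sources used here do not say whether the counting used strand, so reads of Tnnt3 and Prr33 in the shared stretch may not be told apart. Gm12319 had 65.6 TPM in replicate 1 and 74.7 in replicate 2 and ends 97 bases upstream of Pfn1, the gene of the actin-binding protein profilin, on the same strand. Pfn1 had 113 TPM in replicate 1 and 137 in replicate 2. 2310040G24Rik had 45.3 TPM in replicate 1 and 47.6 in replicate 2, and Gm44386, 25664 bases away on the same strand, had 18.1 and 19.8 TPM.

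The remaining highest genes were 1810058I24Rik with 36.5 TPM in replicate 1 and 35.6 in replicate 2, Lncpint with 24.0 and 14.8, Gm10076 with 16.7 and 10.1, 5430431A17Rik with 13.5 and 12.9, and 5031425E22Rik with 8.33 and 9.07. 2310001H17Rik averaged 12.2 ± 0.969 TPM and Lsmem2 11.2 ± 0.0283 TPM (SD, n = 2). Lncpint is a p53-induced lincRNA, and its reads were spread widely: its leading transcript held 17.8% of its TPM in replicate 1 and 16.7% in replicate 2. Gm10076 is listed as a pseudogene by RefSeq, and its level is uncertain because a pseudogene shares sequence with its parent gene.

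The annotation of several genes as noncoding was not shared by RefSeq. Of the 108 genes, 75 matched a RefSeq gene by symbol or synonym, and 65 of those were of type lncRNA, 7 protein-coding, 2 pseudogenes and 1 the RNase MRP RNA. The 7 were 1810058I24Rik, Lsmem2, Gm39469, Tmem250-ps, Gm37494, Gm46430 and D930016D06Rik. The longest open reading frame from ATG to a stop in the leading transcript had a median of 68 codons in these 7 genes and 74 codons in the 65 genes typed lncRNA, and reached 100 codons in 3 of the 7 and 11 of the 65. A frame without a stop inside the transcript was not counted, and a lincRNA entry can cover only part of a RefSeq gene. D930016D06Rik starts at chr5:104525735, while its RefSeq gene Thoc2l runs from 104508350 to 104554207. These medians therefore cannot show whether the 7 genes encode proteins. In 1810058I24Rik it had 68 codons. In Lsmem2, which encodes a membrane protein in RefSeq and whose lincRNA entry is a 369-base transcript, no frame with both an ATG and a stop was found. In Gm37494 a transcript other than the leading one held 918 codons. Counting the leading transcript alone, 18 of all 108 genes had a frame of at least 100 codons. The 2 longest in leading transcripts were 353 codons in Gm26917 and 260 codons in Prr33, which RefSeq types as lncRNA.

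Host RNAs of small nucleolar RNAs are spliced transcripts whose introns yield the small RNA, and many are kept low by nonsense-mediated decay. Of 16 genes named Snhg or Gas5 in the gene tables, 5 are of type lincRNA and 4 are in the set. Snhg6 had 7.02 TPM in replicate 1 and 6.18 in replicate 2, Snhg20 had 3.35 and 2.59, Snhg12 had 2.98 and 3.30, and Snhg18 had 1.69 and 1.07. The fifth, Snhg10, had 1.39 TPM in replicate 1 and 0.83 in replicate 2. None of the 4 reached 2-fold between the animals. Inside Snhg12, Snora44 had 58.7 TPM in replicate 1 and 32.5 in replicate 2 from 55.6 and 30.9 expected counts. Snora61 there had 11.2 and 9.82 TPM, and Snord99 and the Snora16a entries were at 0. All of them overlap an exon of a Snhg12 transcript other than the leading one, so reads may be shared, and all were at 0 in the second transcript table. Snord87 inside Snhg6 and Snord123 inside Snhg18 were listed at 0. The nonsense-mediated decay factors were expressed in 10 of 10 cases, summed to 65.8 TPM in replicate 1 and 72.7 in replicate 2, and none passed the criterion.

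Several lincRNAs carry microRNA hairpins. 6720427I07Rik, the lowest of the 108 genes with 1.01 TPM in replicate 1 and 1.00 in replicate 2 (176 and 175 expected counts), holds the hairpins of let-7a-1, let-7f-1 and let-7d in the exons of its leading transcript on chromosome 13. Gm27028, with 1.16 TPM in replicate 1 and 2.10 in replicate 2 from 11 and 20 expected counts, holds that of miR-30c-2 on chromosome 1. The log2 ratio of replicate 1 over replicate 2 of Gm27028 was -0.80 in the gene table and 0.60 in the second table. The let-7 microRNAs are known to rise as tissues mature, and miR-30c belongs to a family common in muscle. The mature 5p sequences (RefSeq) are printed with the seed, bases 2 to 8, in capitals, to show which share one.
mmu-let-7a-5p: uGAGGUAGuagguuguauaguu
mmu-let-7f-5p: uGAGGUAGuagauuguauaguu
mmu-let-7d-5p: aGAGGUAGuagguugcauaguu
mmu-miR-30c-5p: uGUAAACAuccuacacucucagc
All 3 let-7 sequences have the same seed, and miR-30c has another. These 4 hairpins were listed at 0 TPM in both libraries, and mature microRNAs are not features of these tables. 2900076A07Rik (2.48 TPM in replicate 1 and 2.47 in replicate 2) holds Mir1839, Snhg20 holds Mir6516, and A930003A15Rik (8.32 and 5.50 TPM) holds the predicted hairpin Gm27883. Gm26532 (1.55 and 1.39 TPM) starts at the end of the Mir24-2 hairpin, which follows Mir27a and Mir23a on the same strand.

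Of the other characterised lincRNAs listed, those with lower levels were Epb41l4aos with 3.47 TPM in replicate 1 and 3.03 in replicate 2, Carmn with 3.08 and 3.25, Jpx with 1.40 and 1.57, and Bvht with 1.17 and 1.48. Gm14005, with 1.01 TPM in replicate 1 and 1.23 in replicate 2, is listed by RefSeq as Morrbid, a name that is also on the list. Carmn and Bvht are known from smooth muscle and heart, where Bvht is needed for cardiac commitment of mouse cells. They are transcribed toward each other, with 2153 bases between their ends. The log2 ratio of replicate 1 over replicate 2 was -0.08 for Carmn, while the smooth muscle markers summed to 64.5 TPM in replicate 1 and 41.0 in replicate 2 (3 of 4 higher in replicate 1). The part of smooth muscle in the level of Carmn was not tested. Of the list, 12 further lincRNA genes were below 1 TPM in at least one animal, among them Pvt1 with 1.14 TPM in replicate 1 and 0.63 in replicate 2 and Hotair with 0.27 and 0.30.

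The transcripts of these genes were shorter than those of protein-coding genes and more often a single exon. The 108 genes have 283 annotated transcripts, and 50 genes have 1 transcript. The leading transcript, the one with the highest mean TPM, had a median length of 1023 bases, against 1386 in the 1157 other lincRNA genes with a transcript above 0 and 2608 in protein-coding genes at 1 TPM in both libraries. It was a single exon in 22 of the 108 genes (20.4%), against 13.2% of those other lincRNA genes and 2.35% of those protein-coding genes. Among the 58 genes with several transcripts, the leading transcript held a median of 63.6% of the TPM, and in 24 genes it held under 60%. It was the same transcript in both libraries in 47 of the 58, and the same in the second table in 38 of 57.

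For a few genes the tables differed far more than the animals. In the second table the median lincRNA was 0.53 higher on the log2 scale than in the gene table, beside 0.54 over all genes at 1 TPM in both libraries, and 97 of the 108 lay within 2-fold of that median. Rmrp, Gm10076 (16.7 TPM in replicate 1 and 10.1 in replicate 2), Gm49207 (7.01 and 8.74 TPM) and Gm34342 (1.61 and 1.20 TPM) were listed at 0 there in both animals. Their leading transcripts had 279 to 383 bases, and 12 of the 108 genes had one under 400 bases. 2310075C17Rik, which followed these 4, had 4.05 TPM in replicate 1 and 3.75 in replicate 2, against 1.01 and 0.49 TPM in the second table. At the other end, Gm20186 had 2.32 TPM in replicate 1 and 1.48 in replicate 2 in the gene table, and 215 and 319 TPM in the second. Snhg20 had 47.2 TPM in replicate 1 and 33.1 in replicate 2 there, of which 41.6 and 28.7 TPM were a single 459-base transcript. A small Cajal body RNA inside Snhg20 had 43.6 and 31.9 TPM in the gene table and was at 0 in the second. Bvht, Gm19299 and Gm46430 followed, with log2 differences of 1.77, 1.47 and 1.47. Malat1 was lower in the second table, at 726 TPM in replicate 1 and 645 in replicate 2, and its 6983-base transcript there held 99.9% of the gene, against 43.6% in the first table.

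**Figure D3:**
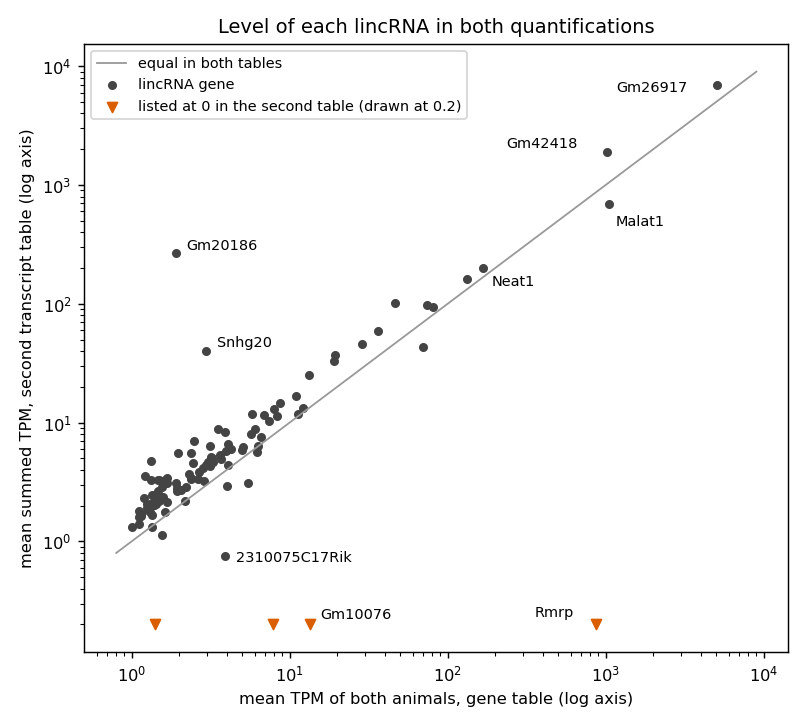
Mean TPM of each of the 108 lincRNAs in the gene table (x axis) and summed over transcripts in the second table (y axis), both on log axes, with the line of equal values. Gm20186 and Snhg20 lay farthest above the line of equal values, and the 4 genes listed at 0 in the second table are drawn as triangles at its lower edge.

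The animals were counted as different in a gene if the credibility intervals that the authors deposited were disjoint, the TPM ratio reached 2-fold and the mean expected count reached 50. Ratios were taken after adding 0.1 to each TPM, so they are too small for low genes. With a single animal a side no p-value can be had. Over all genes 2.21% passed (257 of 11632 with enough counts), and 1.63% of those that also had 1 TPM or more in both libraries (171 of 10472). Of the 108 lincRNAs, 76 had enough counts and 1 of them passed (1.32%), so the share was near that of all genes. The median log2 ratio of replicate 1 over replicate 2 was -0.02 among these 76, and -0.005 among all genes with enough counts. Within 1.5-fold lay 94 of the 108 (87.0%), against 91.2% of all genes at 1 TPM in both libraries, with 55 of the 108 higher in replicate 1 and 52 in replicate 2.

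The gene that passed was Gm32885 (chr15:97157029-97167244, minus strand), which is known here by its number alone. It was higher in replicate 1, the direction in which 1.76% of all genes passed. It had 5.23 TPM in replicate 1 and 1.83 in replicate 2, from 75 and 29 expected counts, a log2 ratio of 1.47. Its intervals ran from 4.22 to 6.68 TPM in replicate 1 and from 1.41 to 2.85 TPM in replicate 2. In the second table it had 13.1 TPM in replicate 1 and 4.52 in replicate 2, a log2 ratio of 1.51. Its mean count was just above the minimum of 50, and at a minimum of 200 counts no lincRNA passed, while 1.71% of all genes did. Markers of some other cell types were also higher in replicate 1: Schwann cell markers summed to 368 TPM in replicate 1 and 81.4 in replicate 2, with 7 of 7 higher in replicate 1 and 6 past the criterion. Fibroblast markers summed to 1764 and 921 TPM (7 of 7 higher in replicate 1), tendon markers to 169 and 110 TPM (8 of 8) and macrophage markers to 43.9 and 26.7 TPM (7 of 7). Adipocyte markers were at 29.8 and 53.2 TPM with 6 of 7 higher in replicate 2. In these sets fewer genes passed the criterion: 2 fibroblast, 4 tendon and 0 macrophage markers, and 2 adipocyte markers in the other direction. None of the 7 Schwann markers was at 0. The part of these cells in the level of Gm32885 was not tested.

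At a fold of 1.5, 6.43% of all genes passed and 5 of the 76 lincRNAs with enough counts. Lncpint, Gm44421, Gm43672 and A930003A15Rik joined Gm32885, and all 5 were higher in replicate 1, the direction in which 4.68% of all genes passed. Lncpint had 24.0 TPM in replicate 1 and 14.8 in replicate 2 (628 and 395 counts), Gm44421 had 3.27 and 1.97 TPM, and Gm43672 had 4.50 and 2.80 TPM. The direction was the same for all 5 genes in the second table.

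**Figure D4:**
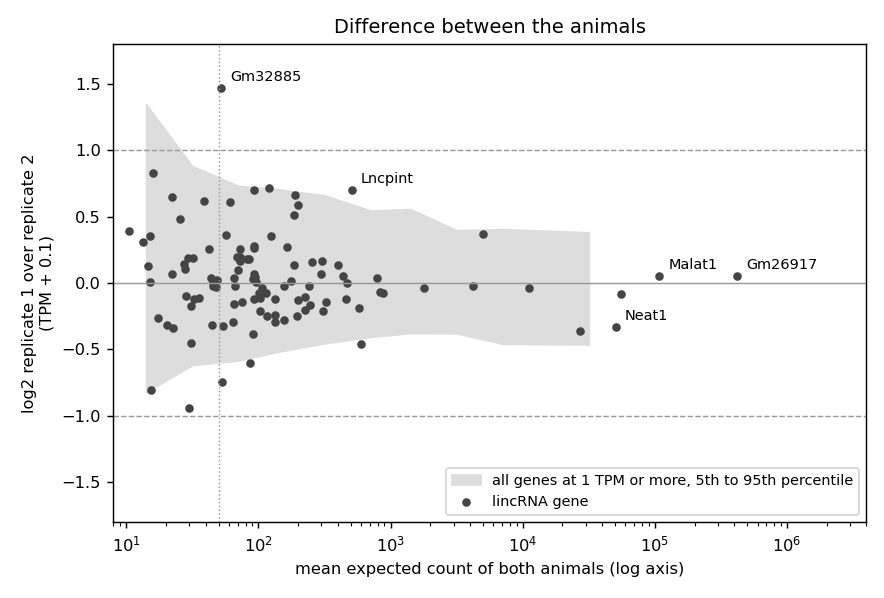
Log2 ratio of replicate 1 over replicate 2 for each of the 108 lincRNAs against the mean expected count (log axis). The grey band runs from the 5th to the 95th percentile of all genes at 1 TPM or more, through the middle of bins of count, dashed lines mark 2-fold and the dotted line 50 counts. On this scale, with 0.1 added to each TPM, Gm32885 is the only lincRNA beyond 2-fold; 5033430I15Rik, at 1.08 TPM in replicate 1 and 2.17 in replicate 2 from 20 and 40 expected counts, lies just inside it at -0.94.

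The position of the genes was not used to choose them. Their nearest protein-coding gene was a median of 4103 bases away, against 45682 bases for 5743 other lincRNA genes. It lay within 5000 bases without overlap for 38.9% of the 108, against 12.9% of the others, and over 50000 bases away for 10.2%, against 48.2%. It was itself at 1 TPM or more in both libraries for 81 of the 108 (75.0%), against 48.2% of the others. These shares are descriptions, and the density of genes around each lincRNA was not measured.

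**Figure D5:**
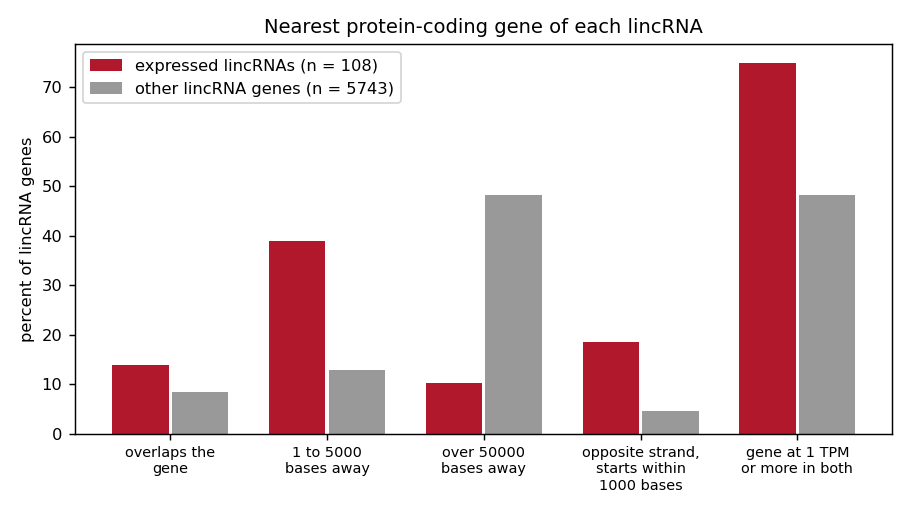
Percent of the 108 expressed lincRNAs (red) and of 5743 other lincRNA genes (grey) by the place and level of their nearest protein-coding gene. The nearest gene was 1 to 5000 bases away for 38.9% of the expressed lincRNAs and 12.9% of the others.

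For 20 of the 108 genes (18.5%, against 4.67% of the others) the lincRNA and its neighbour start within 1000 bases of each other on opposite strands. C030037D09Rik, at 2.18 TPM in replicate 1 and 1.91 in replicate 2, starts 132 bases from Msi2, an RNA-binding protein gene with 61.4 and 72.1 TPM. Gm30108, at 1.36 and 1.35 TPM, starts 151 bases from Camk2g, a calcium-dependent kinase gene with 57.3 TPM in replicate 1 and 69.0 in replicate 2. Fam120aos, at 1.24 and 1.26 TPM, starts 270 bases from Fam120a, with 39.3 TPM in replicate 1 and 42.6 in replicate 2. Gm43672, at 4.50 and 2.80 TPM, starts 510 bases from Tbl1xr1, a corepressor gene with 20.03 and 19.78 TPM, so the lincRNA alone of this pair was past 1.5-fold. Snhg18, at 1.69 and 1.07 TPM, starts 148 bases from Sema5a, with 2.40 TPM in replicate 1 and 0.99 in replicate 2, and both were higher in replicate 1. 5031425E22Rik starts 172 bases from Kmt2e, a chromatin regulator with 8.61 and 8.98 TPM, a level close to its own 8.33 and 9.07 TPM. Nearest genes at 100 TPM or more were found for 9 of the 108 (8.33%, against 1.57%), among them Bin1, a membrane-shaping gene of the muscle tubules, at 217 TPM in replicate 1 and 244 in replicate 2, which overlaps A830052D11Rik (1.79 and 1.56 TPM) on the opposite strand. Pacsin3, which binds membranes in muscle, at 131 and 151 TPM, likewise overlaps Gm17281 (1.27 and 1.56 TPM). In all, 12 of the 108 genes (11.1%, against 6.83% of the others) overlap their neighbour on the opposite strand and 3 (2.78%, against 1.55%) on the same strand. As for Prr33, it is not known whether the counting used strand, so reads of such overlapping pairs may not be told apart. The whole of Gm49749 (4.15 and 3.86 TPM) lies in Pcnx, at 16.5 TPM in replicate 1 and 16.6 in replicate 2, so reads may be shared between them.

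A further 10 of the 108 genes (9.26%, against 2.33% of the others) lie within 5000 bases downstream of their neighbour on its strand. Among these 10 is D930016D06Rik, 3124 bases after BC005561. The RefSeq gene Thoc2l (chr5:104508350-104554207), which has D930016D06Rik as a synonym, spans both. 5430431A17Rik begins in GENCODE 1876 bases after Josd2 (22.52 TPM in replicate 1 and 19.95 in replicate 2). Its RefSeq start lies 10979 bases further downstream, so by RefSeq it would not be within 5000 bases. Gm20300, with 8.12 TPM in replicate 1 and 8.58 in replicate 2, begins 1507 bases after Hint3 (18.9 and 18.1 TPM). Gm44421, one of the 5 genes above, begins 3228 bases after Klf15, a transcription factor gene of muscle metabolism with 15.8 TPM in replicate 1 and 14.8 in replicate 2. The log2 ratio of Gm44421 was 0.70, while Klf15 lay within 1.5-fold. How far transcripts of the neighbour run on was not tested.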

How the data were processed

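Total RNA-seq of gastrocnemius from 2 mice gave a gene table and 2 transcript tables each. Per the deposited notes, the gene and first transcript tables came from alignments to the transcriptome (mm10, GENCODE M21) and the second transcript table from reads and an index, with no tool named. The authors deposited expected counts (estimated reads), TPM (scaled by length over all features), FPKM, and credibility bounds for TPM at an unstated level. Libraries differed by more than sampling noise (chi-square of 35.1 per degree of freedom over 14978 genes), and the labels, not the files, make them separate animals. Members and lists were chosen with earlier results of these data known. Named genes were the 20 highest, those in the lists, those that differ, and the 5 at each edge of the threshold and of the ratio between tables; the examples of neighbouring genes and small RNAs were picked after their values were seen. Ratios used a pseudocount of 0.1. The criterion was run on simulated counts that held sampling noise alone. That run cannot show how the criterion behaves on libraries that differ by more than sampling noise, as these do. The deposited bounds hold no spread between animals and need not enclose the TPM. Sequences came from GENCODE M21 transcripts and RefSeq (GRCm38). No p-value is given, as there is 1 group. Python 3.11.15 with pandas 2.3.3, numpy 2.4.6 and matplotlib 3.10.9 was used. Alternatives changed the threshold, the table, the scaling, the pseudocount, the count minimum and the fold, and left out each animal; the wider gene type, the sum without Gm26917 and Gm42418, and the agreement of tables without either animal were added after the data were seen.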

Additional observations from a re-analysis of the deposited data

How the results depend on the processing

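The number of expressed lincRNAs was 108, and 169 at a threshold of 0.5 TPM, 60 at 2 TPM, 191 by the second table and 183 with TPM rescaled over nuclear protein-coding and lincRNA genes; with either animal alone it was 125 to 126. Their summed level, 9008 TPM, was 11120 in the second table, 21344 rescaled, 7534 as FPKM and 2906 without Gm26917 and Gm42418, and 8853 to 9162 with either animal alone. The 4 highest genes of the second table, with Gm20186 in place of Rmrp, held 87.9% there, against 89.0% for the 4 highest of the gene table. The 1 lincRNA that differed was 0 at a minimum of 200 counts and 5 at a fold of 1.5, and was 1 under the other 6 settings. Over all genes the 257 became 125 at a pseudocount of 1, 140 at 200 counts, 394 with no minimum and 748 at a fold of 1.5. The count was 458 in the second table, where disjoint intervals were not required, so it does not show the effect of the table alone. Leading transcripts were the same in 38 of the 57 genes with a value in the second table, and their median share was 63.6% in the first table, 66.1% in the second and 65.7% to 69.2% with either animal alone. The median gap to the nearest expressed gene was 6817 bases, against 4103 to the nearest gene. The median log2 ratio of replicate 1 over replicate 2 in the second table was 0.11 over all genes with enough counts and 0.07 over lincRNAs, so ratios there are relative to that shift. Gm32885 kept its direction under the alternatives run for it. No paired analysis was possible because the series holds 1 group. The causes of these changes were not tested. Low counts limit 32 of the 108 genes, which had a mean of under 50.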

Other observations

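Other noncoding or formerly noncoding RNAs that the annotation types differently were also expressed in this muscle. Mrln, now annotated as protein-coding, encodes myoregulin, a small inhibitor of the muscle calcium pump, and had 65.0 TPM in replicate 1 and 47.1 in replicate 2. Gas5, a host of small nucleolar RNAs typed as processed transcript, had 31.7 TPM in replicate 1 and 27.3 in replicate 2, above each of the 4 Snhg genes typed as lincRNA. Tug1, typed as antisense, had 11.2 TPM in both animals. Mir22hg, the host of miR-22, had 8.70 TPM in replicate 1 and 9.87 in replicate 2, while the 4 genes of type lincRNA that are named as microRNA hosts, such as Mir17hg with 0.18 and 0.17 TPM, were all under 1 TPM; lincRNAs with other names that hold a hairpin are not among these 4. In all, 25 genes of other types that have a lincRNA transcript reached 1 TPM in both libraries, and with them the set would hold 133 genes.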
